A study of Mus musculus with 9 samples.

Results

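The transcripts described here are 39 genes that are commonly used as marks of fibroblasts, blood vessels and carcinoma cells, measured in RNA of sorted monocytic cells. They were found by symbol among the 54532 genes of the FPKM table, where each symbol matched 1 gene. Genes of fibroblasts and other stromal cells make up 31 of them, and not all are particular to fibroblasts. They include 5 fibrillar collagens, 5 basement membrane and microfibril collagens, and 12 matrix proteoglycans and glycoproteins. Also among the 31 are 3 genes of collagen processing, 3 surface proteins and 3 contractile proteins. The remaining genes are 4 endothelial and 4 epithelial ones.

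The sorted cells are labelled as the monocytic kind of myeloid-derived suppressor cell (M-MDSC), a monocyte-like cell that dampens T cell responses in tumours. They were sorted from tumours of mice that all carried MC38 cells, a mouse colon carcinoma line. Of the 9 libraries, 3 came from LILRB4+/+ SCG2-/- mice (SCG2 knockout libraries), 3 from LILRB4+/+ mice (LILRB4 libraries) and 3 from WT mice. SCG2 knockout mice therefore also carried the LILRB4+/+ genotype, and the groups shared the tumour line, the tissue and the sorted cell type. Not stated in the labels are the nature of the LILRB4 allele, which cells the SCG2 deletion affects, which markers gated the sort, how old the mice were or whether a library is 1 mouse. The p-values below therefore reflect only how far these libraries lie apart, and that spread may be technical.

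Fibroblasts build the tissue matrix. They secrete procollagen chains that enzymes outside the cell trim and cross-link into fibrils, and proteoglycans such as decorin and biglycan bind those fibrils. Endothelial cells line vessels and are held together by cadherin 5 and PECAM1, and carcinoma cells of the gut usually keep epithelial adhesion proteins and keratins. Monocytes and macrophages are blood-derived cells, and transcripts of these other cell types are often used to judge how pure a sort is. Several of the genes are not exclusive, since macrophages can make type VI collagen and osteonectin (SPARC), leukocytes carry PECAM1, and Langerhans cells and some macrophages carry E-cadherin.

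Libraries held 14501163 to 27219202 counts in the deposited table of 9877 genes, which included 28 of the 39 genes. For the labelled cell type, 16 genes of monocytes and macrophages together were looked up, a list that cannot tell M-MDSCs from tumour macrophages. All 16 genes were detected. Their summed level was 1642 to 3404 FPKM in SCG2 knockout, 2858 to 4505 in LILRB4 and 1918 to 4207 in WT libraries, where FPKM is fragments scaled by gene length and library depth. Much of each sum was Cd14, the most abundant of them. Without Cd14 the sums were 886 to 1961 FPKM in SCG2 knockout, 957 to 1817 in LILRB4 and 1031.5 to 1680 in WT libraries. Markers of other blood cells were present too. The 14 T and NK cell genes summed to 298.5 to 529 FPKM in SCG2 knockout, 93.0 to 537 in LILRB4 and 97.3 to 317 in WT libraries. LILRB4 replicate 2 stood apart from the other LILRB4 libraries, with 14 of 14 T and NK cell genes under 0.5 of the mean of those libraries and 16 of 16 monocyte and macrophage genes above that mean.

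Several matrix genes were among the more abundant transcripts of these libraries. By mean FPKM over the 9 libraries, Sparc ranked 201 of 54532 genes, Bgn 315, Col6a1 367, Col3a1 416 and Fstl1 481. Other matrix genes ranked among or below the vessel and carcinoma genes, with Postn at 8646, Thbs2 at 11911, Lum at 12242 and Mfap5 at 13526, beside Pecam1 at 6763, Cdh5 at 10306 and Epcam at 11907. At the other end, Tek ranked 18666 and Krt8 20528. Mean levels were 100 FPKM or more for 5 genes, 10 to 100 for 14, 1 to 10 for 12 and under 1 for 8. Krt8 was at 0 in 4 libraries and Krt18 in 1, and the other 37 genes had reads in every library. In bulk RNA, a lower level from fewer cells of a type and one from less RNA per cell cannot be told apart.

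**Figure D1:**
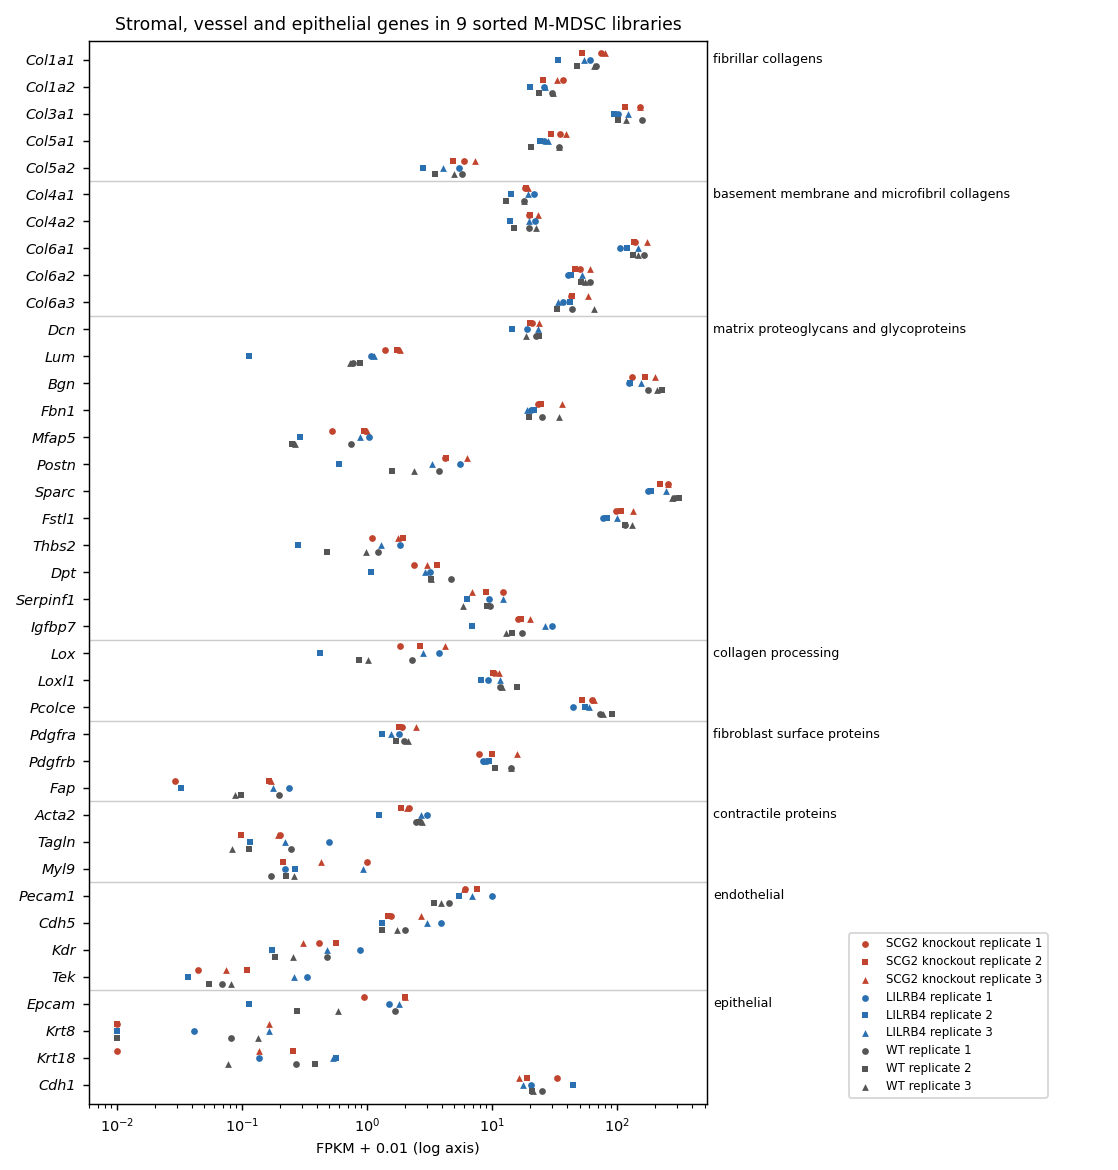
FPKM plus 0.01 (log axis) of each of the 39 genes in each of the 9 libraries, 1 row per gene, ordered by role, with SCG2 knockout above LILRB4 above WT within a row. Matrix genes such as Sparc, at 177 to 312 FPKM, lie far to the right of Tek, Krt8 and Krt18, and the LILRB4 replicate 2 squares lie apart to the left for Lum, Postn, Lox and Epcam.

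Fibrillar collagens carry the tensile strength of connective tissue, and all 5 were present in every library. Col3a1, which encodes the only chain of type III collagen (chromosome 1, 45311538 to 45349706, build GRCm38 here and below), stood at 153, 115 and 153 FPKM in SCG2 knockout, 101, 94.2 and 121 in LILRB4, and 157, 102 and 118 in WT replicates 1 to 3. Col1a1, the major chain of type I collagen (chromosome 11, 94936224 to 94953042), stood at 73.9, 51.9 and 79.7 FPKM in SCG2 knockout, 60.8, 33.4 and 54.1 in LILRB4, and 67.6, 47.4 and 65.0 in WT. Col5a1, a chain of type V collagen that starts fibril assembly, stood at 34.9, 29.5 and 38.7 FPKM in SCG2 knockout, 25.8, 24.3 and 27.7 in LILRB4, and 34.4, 20.4 and 34.2 in WT. The LILRB4 values were the lowest on average for all 3, but only Col5a1 in SCG2 knockout against LILRB4 had groups that did not overlap. Replicate 2 was the lowest of its group in every group for each of the 3. Col1a2 and Col5a2 averaged 28.1 and 4.96 FPKM over the 9 libraries. The 5 genes summed to 281 ± 47.4 FPKM in SCG2 knockout, 209 ± 30.5 in LILRB4 and 248 ± 49.2 in WT libraries (mean ± SD, n = 3 each).

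Type IV collagen forms the sheet of basement membranes, and type VI collagen forms beaded microfibrils around cells. Col6a1 (chromosome 10, 76708792 to 76726168) stood at 139.6, 135 and 174 FPKM in SCG2 knockout, 106, 119.8 and 147 in LILRB4, and 164, 134 and 148 in WT replicates 1 to 3. Col6a2, a second chain of the same heterotrimer, stood at 50.3, 46.0 and 61.0 FPKM in SCG2 knockout, 40.6, 42.4 and 52.4 in LILRB4, and 61.0, 51.0 and 55.0 in WT. Col6a3, the longest chain, stood at 42.8, 43.7 and 58.4 FPKM in SCG2 knockout, 37.1, 41.9 and 33.5 in LILRB4, and 43.2, 33.1 and 64.9 in WT. Groups overlapped for Col6a1 and Col6a2 in every comparison, and for Col6a3 all SCG2 knockout values lay above all LILRB4 values. The type IV chains Col4a1 and Col4a2 ranged from 13.0 to 21.7 and from 13.8 to 23.1 FPKM over the 9 libraries. The 5 genes summed to 289.9 ± 39.5 FPKM in SCG2 knockout, 244 ± 24.5 in LILRB4 and 287 ± 35.2 in WT libraries (mean ± SD, n = 3 each).

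Ratios between partner chains varied little for some pairs and more for others across the libraries. The FPKM ratio of Col6a2 to Col6a1, which lie on the same strand 85161 bases apart, was 0.340 to 0.383 over the 9 libraries, so the highest was 1.13 times the lowest. The ratio of Col4a2 to Col4a1 was 0.975 to 1.24, a span of 1.27 times. The ratio of Col1a2 to Col1a1, which lie on different chromosomes, was 0.418 to 0.602, with LILRB4 replicate 2 the highest, a span of 1.44 times. Alone, Col6a1 spanned 1.64 times, Col4a1 1.68 times and Col1a1 2.38 times. The type V chains Col5a2 to Col5a1 had a ratio of 0.115 (LILRB4 replicate 2) to 0.210 (LILRB4 replicate 1), a span of 1.82 times, and Col6a3 to Col6a1 one of 0.228 (LILRB4 replicate 3) to 0.440 (WT replicate 3), a span of 1.93 times. Krt18 to Krt8, the keratin partners, ran from 0.545 to 4.09 in the 5 libraries where both had reads. Of neighbouring genes that encode different proteins, Col5a2 to Col3a1, 24614 bases apart, spanned 1.80 times, and Lum to Dcn, 46984 bases apart, spanned 11.8 times, with the lowest ratio of 0.00723 in LILRB4 replicate 2 and the next lowest of 0.0342 in WT replicate 1. These ratios describe 9 libraries and carry no test.

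**Figure D2:**
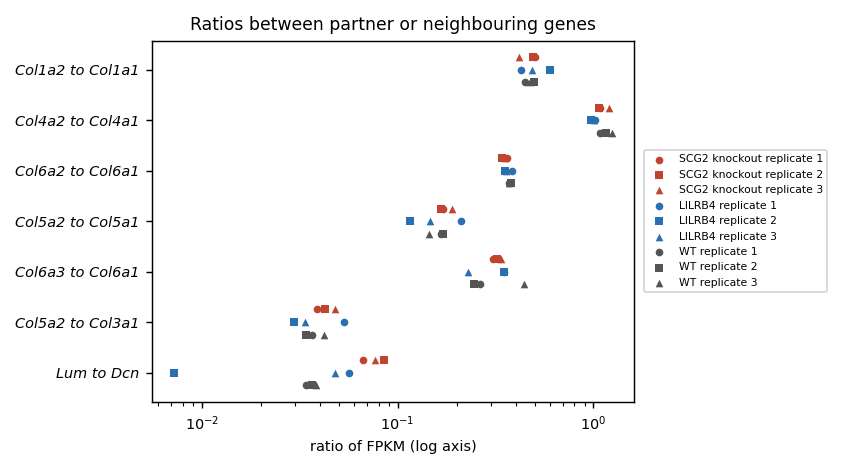
FPKM ratio of partner or neighbouring genes in each library, on a log axis, coloured by group. The points for Col6a2 to Col6a1 lie together at 0.340 to 0.383, while Lum to Dcn falls to 0.00723 in LILRB4 replicate 2.

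Col4a1 (minus strand, 11198423 to 11312826) and Col4a2 (plus strand, 11312805 to 11449287) start head to head on chromosome 8, and their annotated spans share 22 bases. Their promoter windows, 250 bases before to 50 after the RefSeq start on GRCm38.p6, are printed 5′ to 3′ on each gene's own strand because the windows overlap. Capitals mark the 78 bases, chr8:11312777-11312854, that both windows hold, which read as reverse complements of each other. The Col4a1 window is chr8:11312777-11313076 on the minus strand and the Col4a2 window is chr8:11312555-11312854 on the plus strand.
Col4a1: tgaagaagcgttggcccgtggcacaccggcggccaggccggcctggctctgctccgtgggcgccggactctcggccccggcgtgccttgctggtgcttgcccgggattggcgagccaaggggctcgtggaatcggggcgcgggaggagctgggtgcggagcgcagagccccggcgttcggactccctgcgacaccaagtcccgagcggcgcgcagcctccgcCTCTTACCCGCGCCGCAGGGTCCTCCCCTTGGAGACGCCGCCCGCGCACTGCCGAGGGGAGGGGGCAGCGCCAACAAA
Col4a2: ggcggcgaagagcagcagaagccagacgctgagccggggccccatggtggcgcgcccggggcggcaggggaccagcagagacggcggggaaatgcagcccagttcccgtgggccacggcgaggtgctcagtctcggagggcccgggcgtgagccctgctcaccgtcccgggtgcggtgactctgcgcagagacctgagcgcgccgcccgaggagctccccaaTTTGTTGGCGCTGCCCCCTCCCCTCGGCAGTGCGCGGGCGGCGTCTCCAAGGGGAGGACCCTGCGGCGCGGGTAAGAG

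The matrix proteoglycans and glycoproteins held the most abundant transcript of the 39, Sparc, and their highest members were lower in LILRB4 than in WT libraries without passing the test. Sparc, which encodes the collagen-binding glycoprotein osteonectin (chromosome 11, 55394500 to 55423183), stood at 255, 221 and 257 FPKM in SCG2 knockout, 177, 187 and 246 in LILRB4, and 283, 312 and 277 in WT replicates 1 to 3. Bgn, which encodes the small proteoglycan biglycan (chromosome X, 73483602 to 73495933), stood at 131, 168 and 199.5 FPKM in SCG2 knockout, 125, 127 and 156 in LILRB4, and 177, 229.8 and 209 in WT. Fstl1, which encodes a secreted follistatin-like glycoprotein (chromosome 16, 37776873 to 37836514), stood at 97.2, 107 and 133 FPKM in SCG2 knockout, 76.7, 82.2 and 99.8 in LILRB4, and 116, 116 and 131 in WT. For each of the 3 genes every LILRB4 value lay below every WT value, and the SCG2 knockout values overlapped those of LILRB4. The SCG2 knockout values also lay below all WT values for Sparc, and overlapped them for Bgn and Fstl1.

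In LILRB4 against WT, the log2 fold change of Bgn was -0.62 (SE 0.20, edgeR quasi-likelihood test with Benjamini-Hochberg adjustment, adjusted p = 0.115), that of Sparc -0.54 (SE 0.18, edgeR adjusted p = 0.122) and that of Fstl1 -0.51 (SE 0.18, edgeR adjusted p = 0.131). The same genes passed with DESeq2, at adjusted p-values of 0.0271 for Bgn, 0.0279 for Sparc and 0.0493 for Fstl1, so the call depends on the test. Without LILRB4 replicate 2, Bgn stood at -0.56 (edgeR adjusted p = 0.153), Sparc at -0.47 (0.173) and Fstl1 at -0.46 (0.177). In SCG2 knockout against LILRB4, the log2 fold change of Fstl1 was 0.44 (SE 0.18, edgeR adjusted p = 0.415). Summed over the 12 genes of the role, the level was 611 ± 68.1 FPKM in SCG2 knockout, 503 ± 78.5 in LILRB4 and 696 ± 34.6 in WT libraries (mean ± SD, n = 3 each).

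The other 9 genes of the role were lower in level. Dcn, Fbn1, Igfbp7 and Serpinf1 had mean levels of 20.6, 24.9, 17.9 and 8.95 FPKM, and Postn, Dpt, Thbs2, Lum and Mfap5 had means of 3.54, 3.03, 1.2, 1.06 and 0.648 FPKM. A few were picked for their pattern after their values were seen. Lum, which encodes the fibril-binding proteoglycan lumican, stood at 1.39, 1.72 and 1.82 FPKM in SCG2 knockout, 1.07, 0.103 and 1.13 in LILRB4, and 0.762, 0.866 and 0.715 in WT replicates 1 to 3. Its SCG2 knockout values lay above all others, and the LILRB4 replicate 2 value came from 6 reads. In SCG2 knockout against LILRB4 its log2 fold change was 1.38 by limma on log2(FPKM + 0.1) (SE 0.60, unadjusted p = 0.0466, adjusted p = 0.599), and 0.53 without LILRB4 replicate 2 (limma unadjusted p = 0.0554, adjusted p = 0.723). Postn, which encodes periostin, a matrix protein of activated fibroblasts, stood at 4.17, 4.30 and 6.32 FPKM in SCG2 knockout, 5.54, 0.591 and 3.30 in LILRB4, and 3.73, 1.59 and 2.36 in WT. Igfbp7, which encodes a secreted growth factor binding protein of vessels and stroma, stood at 16.2, 16.9 and 20.2 FPKM in SCG2 knockout, 30.0, 6.86 and 26.5 in LILRB4, and 17.4, 14.5 and 12.8 in WT. For Igfbp7, LILRB4 replicate 2 was the lowest of all 9 libraries and the other LILRB4 libraries were the highest. Its log2 fold change in LILRB4 against WT was 0.48 (edgeR adjusted p = 0.543), and without LILRB4 replicate 2 it was 0.91 (edgeR adjusted p = 0.0298). By limma on FPKM it was 0.25 with all libraries (limma adjusted p = 0.833) and 0.93 without LILRB4 replicate 2 (limma adjusted p = 0.0642). Leaving out the lowest library raises the LILRB4 group whatever the cause, so this call cannot show an effect of genotype.

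Genes of collagen processing act outside the cell. Pcolce, which encodes an enhancer of the proteinase that trims procollagen (chromosome 5, 137605103 to 137613784), stood at 63.0, 52.1 and 64.9 FPKM in SCG2 knockout, 44.0, 54.8 and 59.1 in LILRB4, and 73.0, 90.1 and 77.7 in WT replicates 1 to 3. Loxl1, a lysyl oxidase-like enzyme needed for elastic fibres, stood at 10.4, 10.1 and 11.3 FPKM in SCG2 knockout, 9.19, 8.15 and 11.5 in LILRB4, and 11.5, 15.8 and 12.0 in WT. Lox, which cross-links collagen and elastin, stood at 1.81, 2.62 and 4.22 FPKM in SCG2 knockout, 3.76, 0.412 and 2.79 in LILRB4, and 2.29, 0.856 and 1.0 in WT. Pcolce was higher in all 3 WT libraries than in any other library, and Loxl1 was higher in all 3 WT libraries than in any SCG2 knockout library. Lox overlapped between groups and was lowest in LILRB4 replicate 2. Pcolce had log2 fold changes of -0.64 in LILRB4 against WT (SE 0.17, edgeR adjusted p = 0.0673) and -0.39 in SCG2 knockout against WT (SE 0.17, edgeR adjusted p = 0.334). Loxl1 had one of -0.47 in LILRB4 against WT (SE 0.18, edgeR adjusted p = 0.158). Pcolce passed in LILRB4 against WT with DESeq2 (adjusted p = 0.0084) and with scaling by total counts (log2 fold change -0.77, edgeR adjusted p = 0.0382), a scaling that moved the median of all genes to -0.15 on the log2 scale. The 3 genes summed to 73.5 ± 7.95 FPKM in SCG2 knockout, 64.6 ± 8.25 in LILRB4 and 94.8 ± 10.6 in WT libraries (mean ± SD, n = 3 each).

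Promoter windows of the 4 genes with the lowest adjusted p-values among those below WT in LILRB4 libraries (Pcolce, Bgn, Sparc and Fstl1) are printed for comparison, each 5′ to 3′ on its gene's strand (RefSeq, GRCm38.p6). Capitals mark GGGCGG on either strand (CCGCCC when it lies on the other strand), the core of the GC box that SP1 binds. The windows are chr5:137611355-137611654 (minus strand) for Pcolce, chrX:73483351-73483650 (plus strand) for Bgn, chr11:55420031-55420330 (minus strand) for Sparc and chr16:37776805-37777104 (plus strand) for Fstl1. The Sparc and Pcolce windows lie inside the gene spans of the deposited table, at other starts. For Fstl1 the RefSeq start also differed, at 37777055 beside 37776873 for its annotated span.
Pcolce: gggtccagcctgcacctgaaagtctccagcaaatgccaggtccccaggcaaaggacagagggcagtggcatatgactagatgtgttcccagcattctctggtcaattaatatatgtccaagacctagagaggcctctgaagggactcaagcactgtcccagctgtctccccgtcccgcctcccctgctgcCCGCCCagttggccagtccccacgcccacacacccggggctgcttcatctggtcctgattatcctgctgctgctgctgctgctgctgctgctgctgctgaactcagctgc
Bgn: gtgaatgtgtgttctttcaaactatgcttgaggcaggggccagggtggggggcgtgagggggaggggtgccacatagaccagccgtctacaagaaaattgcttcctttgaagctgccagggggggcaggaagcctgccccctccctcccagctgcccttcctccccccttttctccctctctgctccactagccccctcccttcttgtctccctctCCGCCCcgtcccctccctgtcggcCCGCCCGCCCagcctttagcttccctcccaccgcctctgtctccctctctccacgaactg
Sparc: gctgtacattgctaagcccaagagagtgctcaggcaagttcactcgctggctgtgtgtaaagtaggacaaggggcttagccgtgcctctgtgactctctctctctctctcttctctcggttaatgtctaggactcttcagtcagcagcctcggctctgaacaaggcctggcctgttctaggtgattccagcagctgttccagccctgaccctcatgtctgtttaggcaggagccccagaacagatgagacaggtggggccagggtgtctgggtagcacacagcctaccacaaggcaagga
Fstl1: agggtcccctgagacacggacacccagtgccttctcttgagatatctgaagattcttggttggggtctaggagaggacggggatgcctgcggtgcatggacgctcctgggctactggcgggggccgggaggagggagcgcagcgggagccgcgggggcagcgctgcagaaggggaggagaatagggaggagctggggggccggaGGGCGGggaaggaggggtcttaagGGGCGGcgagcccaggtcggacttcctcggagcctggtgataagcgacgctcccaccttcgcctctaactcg

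The letters GGGCGG occurred in 3 of these 4 windows and were not found in that of Sparc. RefSeq windows were matched for 26 of the 39 genes, which have 28 windows, and 14 of these windows held GGGCGG on either strand, beside 35.7% of all 32851 windows of the same 300-base length. CCAAT occurred in 6 of the 28 windows (21.4%, beside 37.4% of all) and TATAAA in 5 (17.9%, beside 13.6%), also on either strand. The CArG box that serum response factor binds occurred in 1 window, that of Myl9 (3.57%, beside 1.63% of all). The 4 motifs were searched without regard to overlaps between them, and a match is a description of letters only.

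Surface proteins of fibroblasts and pericytes were low to moderate. Pdgfrb, which encodes the PDGF receptor chain of pericytes and fibroblasts, stood at 7.87, 9.92 and 15.8 FPKM in SCG2 knockout, 8.42, 9.51 and 8.70 in LILRB4, and 14.2, 10.5 and 14.1 in WT replicates 1 to 3. Pdgfra, the receptor chain of mesenchymal cells, stood at 1.90, 1.79 and 2.46 FPKM in SCG2 knockout, 1.78, 1.30 and 1.56 in LILRB4, and 1.95, 1.69 and 2.13 in WT. Fap, which encodes a protease of activated fibroblasts, stood at 0.0193, 0.155 and 0.161 FPKM in SCG2 knockout, 0.226, 0.0223 and 0.167 in LILRB4, and 0.189, 0.0881 and 0.0772 in WT. For Pdgfrb every LILRB4 value lay below every WT value, and for Pdgfra every SCG2 knockout value lay above every LILRB4 value. Fap rested on 2 to 25 reads a library. The log2 fold change of Pdgfrb was -0.58 in LILRB4 against WT (SE 0.24, edgeR adjusted p = 0.187), and that of Pdgfra was 0.47 in SCG2 knockout against LILRB4 (SE 0.19, edgeR adjusted p = 0.417).

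The contractile genes of myofibroblasts and smooth muscle were near the floor apart from Acta2. Acta2, smooth muscle actin, stood at 2.15, 1.87 and 2.09 FPKM in SCG2 knockout, 3.01, 1.23 and 2.69 in LILRB4, and 2.46, 2.59 and 2.76 in WT replicates 1 to 3. Tagln, which encodes the actin-binding protein transgelin, stood at 0.193, 0.0881 and 0.184 FPKM in SCG2 knockout, 0.490, 0.106 and 0.209 in LILRB4, and 0.235, 0.105 and 0.0733 in WT. Myl9, a regulatory myosin light chain, stood at 0.988, 0.201 and 0.419 FPKM in SCG2 knockout, 0.209, 0.254 and 0.910 in LILRB4, and 0.160, 0.215 and 0.251 in WT. All SCG2 knockout values of Acta2 lay below all WT values, and the groups overlapped in every comparison for Tagln and Myl9. Tagln rested on 3 to 16 reads and Myl9 on 4 to 28 reads a library. The count table held none of the 3.

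Endothelial genes were low, and Pecam1 was the most abundant of the 4. Pecam1 (chromosome 11, 106654217 to 106750628) encodes a junction protein that platelets and leukocytes also carry, and stood at 6.02, 7.59 and 5.94 FPKM in SCG2 knockout, 9.95, 5.45 and 6.95 in LILRB4, and 4.49, 3.41 and 3.86 in WT replicates 1 to 3. All 6 SCG2 knockout and LILRB4 values lay above all WT values. Its log2 fold change was 0.89 in LILRB4 against WT (SE 0.22, edgeR adjusted p = 0.0602) and 0.76 in SCG2 knockout against WT (SE 0.22, edgeR adjusted p = 0.317). In LILRB4 against WT it passed with DESeq2 (adjusted p = 0.00556) and without LILRB4 replicate 2 (log2 fold change 1.09, edgeR adjusted p = 0.0224). It did not pass with scaling by total counts (0.75, edgeR adjusted p = 0.0727). By limma on FPKM it did not pass with all libraries (0.87, limma adjusted p = 0.131) or without LILRB4 replicate 2 (1.07, limma adjusted p = 0.0667). The genes more particular to endothelium had no such separation with all 9 libraries. Cdh5, the junctional cadherin of endothelium, stood at 1.54, 1.47 and 2.67 FPKM in SCG2 knockout, 3.92, 1.30 and 3.03 in LILRB4, and 2.0, 1.32 and 1.73 in WT. Kdr, the main VEGF receptor, stood at 0.406, 0.550 and 0.297 FPKM in SCG2 knockout, 0.869, 0.163 and 0.464 in LILRB4, and 0.470, 0.175 and 0.247 in WT. Tek, the angiopoietin receptor, stood at 0.0348, 0.0991 and 0.0647 FPKM in SCG2 knockout, 0.323, 0.0268 and 0.249 in LILRB4, and 0.0594, 0.0441 and 0.0722 in WT. For all 4 genes, LILRB4 replicate 1 was the highest of the LILRB4 libraries, and the replicate 2 libraries were the lowest of the LILRB4 and of the WT group. For Cdh5 and Tek, LILRB4 replicates 1 and 3 lay above all SCG2 knockout and WT libraries. Tek rested on 3 to 31 reads a library. The 14 T and NK cell genes, whose leukocytes can also carry PECAM1, were likewise lowest in sum in LILRB4 replicate 2 and WT replicate 2, and their part in the Pecam1 values was not tested.

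Among the epithelial genes, E-cadherin was the most abundant, Epcam was low and Krt8 and Krt18 were near the floor. Cdh1, which encodes E-cadherin (chromosome 8, 106603351 to 106670246), stood at 33.1, 18.9 and 16.3 FPKM in SCG2 knockout, 20.4, 43.9 and 17.6 in LILRB4, and 24.9, 20.9 and 21.3 in WT replicates 1 to 3. Epcam, the epithelial adhesion molecule, stood at 0.938, 2.0 and 2.0 FPKM in SCG2 knockout, 1.49, 0.103 and 1.78 in LILRB4, and 1.67, 0.265 and 0.572 in WT. In LILRB4 replicate 2, Cdh1 was the highest of all libraries and Epcam the lowest. Krt8 and Krt18 encode the keratin pair of simple epithelium. Krt8 stood at 0, 0 and 0.156 FPKM in SCG2 knockout, 0.0311, 0 and 0.154 in LILRB4, and 0.0714, 0 and 0.124 in WT. Krt18 stood at 0, 0.244 and 0.127 FPKM in SCG2 knockout, 0.127, 0.557 and 0.526 in LILRB4, and 0.260, 0.376 and 0.0676 in WT. Krt8 rested on 0 to 8 and Krt18 on 0 to 20 reads a library, and a library with 0 reads allows up to 3, a limit that covers counting error only. The groups overlapped in every comparison for all 4 genes.

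Over all 39 genes, the effect of the LILRB4 genotype was read from LILRB4 against WT, and no gene passed. In the edgeR test of the deposited counts 0 of 28 genes were higher and 0 lower at an adjusted p under 0.05, where 1.73% of all 9877 genes were higher and 0.516% lower, 2.25% in either direction. These shares of all genes rested on single libraries. The 171 genes higher and 51 lower became 0 and 0 without WT replicate 2 or WT replicate 3, 8 and 0 without LILRB4 replicate 1, and 14 and 0 without LILRB4 replicate 3. They became 27 and 5 without WT replicate 1, 57 and 1 without SCG2 knockout replicate 2, 158 and 29 without SCG2 knockout replicate 1, 162 and 30 without SCG2 knockout replicate 3, and 541 and 148 without LILRB4 replicate 2. At an unadjusted p under 0.05, 1 was higher (Pecam1) and 6 were lower (Bgn, Sparc, Fstl1, Pcolce, Pdgfrb and Loxl1), beside 11.3% of all genes in each direction. The log2 fold change was positive for 10 and negative for 18 of the 28, with a median of -0.25, beside -0.02 for all genes. By limma on log2(FPKM + 0.1), 0 of 38 genes passed in either direction, beside 0.222% of 18904 genes higher and 0.00529% lower, while 1 was higher and 5 lower when p was not adjusted, beside 8.65% and 7.12% of all genes. With recovered counts 0 of 36 genes passed, beside 0.813% of all genes higher and 0.0572% lower. DESeq2 called 1 gene higher and 4 lower, namely Pecam1, and Pcolce, Bgn, Sparc and Fstl1, beside 6.2% and 3.16% of all genes. Without LILRB4 replicate 2, the edgeR test called 2 of 28 higher (Pecam1 and Igfbp7) and 0 lower, beside 5.48% and 1.5% of all genes. The 28 still split into 10 positive and 18 negative (median log2 fold change -0.15). With p unadjusted, 5 were then higher (Igfbp7, Lox, Pecam1, Cdh5 and Kdr) and 3 lower (Bgn, Sparc and Pcolce), beside 15.8% and 12.5%. By limma, 16 of 38 were positive and 22 negative with all libraries (median -0.18). Without LILRB4 replicate 2, 20 were positive and 18 negative (median 0.07), so the limma median changed sign. On that scale 6 were then higher and 4 lower with p unadjusted, beside 12.7% and 8.68%. Pecam1 and Igfbp7 then had limma adjusted p-values of 0.0667 and 0.0642. The 3 LILRB4 and 3 WT values did not overlap for 1 higher gene (Pecam1) and 6 lower ones (Bgn, Sparc, Fstl1, Dpt, Pcolce and Pdgfrb) of 39, beside 9.93% and 10.8% of all genes.

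The effect of SCG2 loss, with LILRB4+/+ in both groups, was read from SCG2 knockout against LILRB4. In the edgeR test 0 of 28 genes passed in either direction, as did 0.0% of all genes, and the lowest adjusted p was 0.415. At an unadjusted p under 0.05, 5 were higher and 0 lower, beside 4.88% of all genes higher and 6.18% lower. These were Fstl1, Pdgfra, Col1a2 (log2 fold change 0.46, SE 0.20, edgeR adjusted p = 0.422), Fbn1 (0.53, SE 0.23, edgeR adjusted p = 0.423) and Col5a2 (0.63, SE 0.27, edgeR adjusted p = 0.429). Fbn1 encodes fibrillin 1, the main protein of elastic microfibrils. The log2 fold change was positive for 23 and negative for 5 of the 28, with a median of 0.34, beside 0.03 for all genes. Without LILRB4 replicate 2, 21 were positive and 7 negative (median 0.25, beside 0.02 for all genes), and at an unadjusted p under 0.05, 0 were higher and 2 lower (Igfbp7 and Cdh5), beside 3.61% and 4.89% of all genes. SCG2 knockout replicate 3 was the highest of its group for 25 of the 39 genes (64.1%, beside 34.6% of all genes). Without it, 1.48% of all genes were higher and 4.36% lower at an unadjusted edgeR p under 0.05. The split of the 28 genes without it is not given here. By limma 0 of 38 passed, beside 0.0% of all genes higher and 0.0106% lower, and 1 gene, Lum, was higher and 0 lower when p was not adjusted, beside 2.82% and 5.37% of all genes. On this scale 29 of the 38 log2 fold changes were positive and 9 negative (median 0.26, beside 0.00 for all genes). With LILRB4 replicate 2 left out, 21 were positive and 17 negative (median 0.04, beside -0.01 for all genes). Then 0 were higher and 4 lower (Igfbp7, Acta2, Cdh5 and Tek) at an unadjusted limma p under 0.05, beside 2.41% and 4.56%. DESeq2 and edgeR with recovered counts called 0, the first beside 0.132% of all genes higher and 1.64% lower. The values did not overlap for 5 higher genes (Col5a1, Col6a3, Lum, Fbn1 and Pdgfra) and for 0 lower ones of 39, beside 6.09% and 7.93% of all genes.

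SCG2 knockout against WT sets the combined genotype against WT mice. In the edgeR test 0 of 28 genes passed in either direction, as did 0.0% of all genes, and the lowest adjusted p was 0.317. At an unadjusted p under 0.05, Pecam1 was higher and Pcolce lower, beside 8.47% and 6.11% of all genes. The log2 fold change was positive for 21 and negative for 7 of the 28, with a median of 0.17, beside 0.00 for all genes. By limma 0 of 38 passed, beside 0.0% of all genes, with 1 higher and 1 lower when p was not adjusted, beside 6.55% and 5.18% of all genes. DESeq2 called 0, beside 0.699% of all genes higher and 0.233% lower, and edgeR with recovered counts called 0. The values did not overlap for 4 higher genes (Col4a1, Lum, Postn and Pecam1) and 4 lower ones (Sparc, Loxl1, Pcolce and Acta2) of 39, beside 10.5% and 9.25% of all genes. Each pair of the 3 comparisons shares 1 group of libraries, so their values are not independent.

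**Figure D3:**
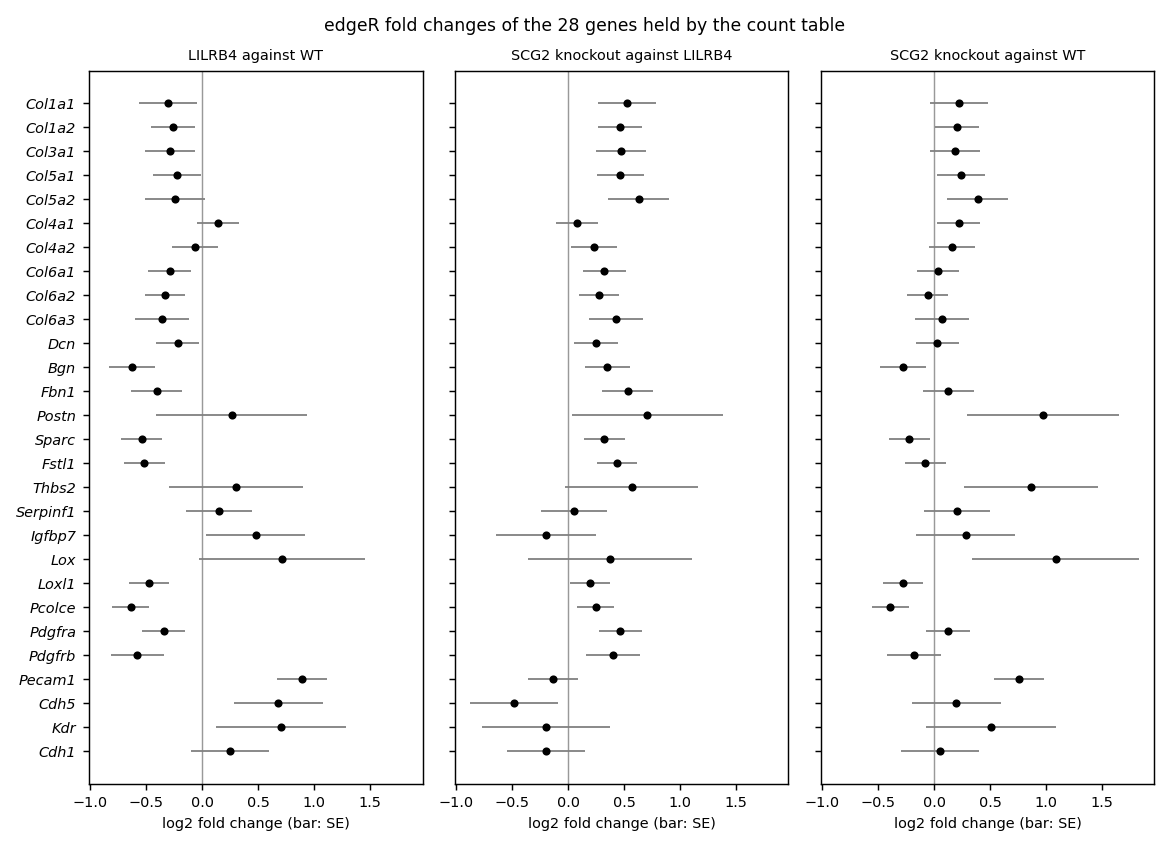
Log2 fold change (edgeR, deposited counts) of the 28 genes in the count table, 1 panel per comparison, beside a line at 0. Bars are standard errors derived from the F statistic of the test. None passed at an adjusted p under 0.05, 18 of 28 lie below 0 in LILRB4 against WT, and 23 lie above 0 in SCG2 knockout against LILRB4.

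By role, the 5 fibrillar collagens had negative log2 fold changes in LILRB4 against WT (median -0.26) and positive ones in SCG2 knockout against LILRB4 (median 0.47) and SCG2 knockout against WT (median 0.22), all by edgeR and none passing. Of the 5 basement membrane and microfibril collagens, 1 was positive in LILRB4 against WT (median -0.29) and all 5 in SCG2 knockout against LILRB4 (median 0.27). Of the 3 endothelial genes in the count table, all 3 were positive in LILRB4 against WT (median 0.70), 0 positive in SCG2 knockout against LILRB4 (median -0.19) and all 3 positive in SCG2 knockout against WT (median 0.51). Summed over all 4 endothelial genes, the level was 8.89 ± 0.859 FPKM in SCG2 knockout, 10.9 ± 4.06 in LILRB4 and 5.96 ± 1.04 in WT libraries (mean ± SD, n = 3 each). Without LILRB4 replicate 2, the LILRB4 sums were 15.1 and 10.7 FPKM, and the medians in LILRB4 against WT were -0.13 for fibrillar collagens, -0.25 for basement membrane and microfibril collagens and 1.09 for endothelial genes. In SCG2 knockout against LILRB4 they were then 0.38, 0.21 and -0.62 for the same roles.

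Many of these genes were low in LILRB4 replicate 2. Its FPKM was under 0.5 of the mean of LILRB4 replicates 1 and 3 for 16 of the 39 genes (41.0%), beside 17.1% of 18486 genes, and it was the lowest of its group for 27 (69.2%), beside 35.7% of all genes. The 5 genes with a mean of 100 FPKM or more had ratios of 0.847 to 0.947 (median 0.902), and the 14 genes of 10 to 100 FPKM had ratios of 0.243 (Igfbp7) to 2.31 (Cdh1) with a median of 0.848. The 12 genes of 1 to 10 FPKM had ratios of 0.0632 to 0.780 (median 0.364), and the 8 genes under 1 FPKM had ratios of 0 (Krt8) to 1.71 (Krt18) with a median of 0.272. Over all genes, the median ratio was 0.995 at 100 FPKM or more, 1.03 at 10 to 100, 1.02 at 1 to 10 and 0.777 at 0.1 to 1 FPKM. Among the genes under 0.5, Epcam had a ratio of 0.0632, Lum of 0.0940, Lox of 0.126 and Postn of 0.134. WT replicate 2 was the lowest of its group for 26 genes (66.7%), beside 38.6% of all genes, and SCG2 knockout replicate 3 the highest of its group for 25 (64.1%), beside 34.6%. The T and NK cell genes were at 0.111 to 0.381 of the other LILRB4 libraries in LILRB4 replicate 2, the 6 erythroid genes were all under 0.5, and the 8 neutrophil genes were all above 1. Their part in the values of the stromal and vessel genes was not tested.

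**Figure D4:**
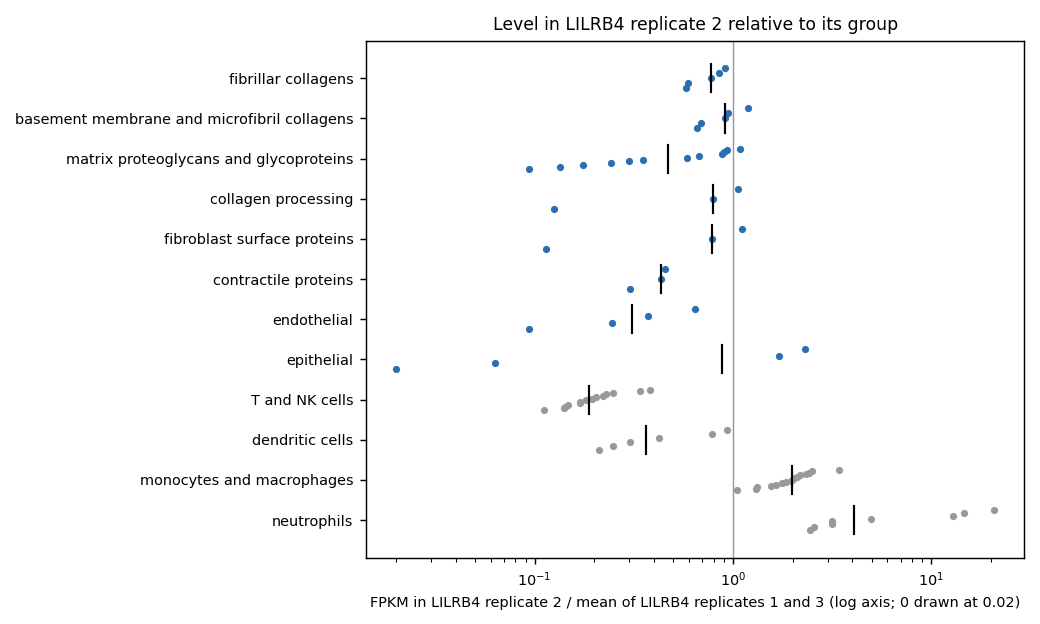
FPKM in LILRB4 replicate 2 over the mean of LILRB4 replicates 1 and 3 (log axis, with Krt8 at 0 drawn at the left end), 1 point per gene, by role (blue) and for 4 lists of blood cells (grey), with a bar at each median. All T and NK cell genes lie at 0.111 to 0.381, all monocyte and macrophage genes lie above 1, and the stromal and vessel genes spread from 0.0939 (Tek) to 1.19 (Col6a3).

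Other genes of the same cell types, taken from lists chosen with earlier results of these data known, were counted for comparison. Of 30 further fibroblast genes in the count table, 0 passed in any comparison by edgeR, and 6 were positive in LILRB4 against WT (median log2 fold change -0.34) and 24 in SCG2 knockout against LILRB4 (median 0.29). The most abundant were Lgals1, a secreted galectin that macrophages make too, at 830 to 992 FPKM in SCG2 knockout, 749 to 1211 in LILRB4 and 1152 to 1868 in WT, and Fn1, fibronectin, at 181 to 274 in SCG2 knockout, 246 to 688 in LILRB4 and 220.1 to 278 in WT. Of 8 further endothelial genes that the count table held, 0 passed, and 6 were positive in LILRB4 against WT (median 0.80) and 2 in SCG2 knockout against LILRB4 (median -0.52). Of the pericyte and smooth muscle list 2 genes were in the count table, of the epithelial list 5, and 0 of them passed in any comparison. Cspg4, a proteoglycan of pericytes, stood at 10.7 to 14.7 FPKM in SCG2 knockout, 8.35 to 10.7 in LILRB4 and 10.1 to 17.3 in WT libraries, and the melanoma cell adhesion molecule Mcam stood at 2.35 to 4.17 FPKM in SCG2 knockout, 1.24 to 5.70 in LILRB4 and 1.30 to 3.19 in WT libraries. The junction proteins Tjp1 and Jup led the epithelial list, at 5.48 to 10.2 and 5.17 to 6.88 FPKM in SCG2 knockout, 5.19 to 7.75 and 5.27 to 5.55 in LILRB4, and 6.40 to 11.1 and 6.84 to 7.67 in WT.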

How the data were processed

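Poly-A RNA of sorted M-MDSCs was sequenced from strand-specific libraries, per the labels' protocols. HISAT2 2.0.5 and featureCounts 1.5.0-p3 were used, per the submitters' processing notes. The build and strand setting were not given in the sources used here, and coordinates matched GRCm38 at both ends for 53585 of 54495 gene identifiers (98.3%). The authors deposited counts for 9877 genes and FPKM for 54532. Multiplying FPKM by gene length and a library constant returned whole numbers for all 490788 values (tolerance 0.01), and these recovered counts totalled 15004944 to 28070495 per library. They differed from the deposited counts for 47 genes, of which 0 are described here.

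Counts were tested with edgeR 4.0.16 (R 4.3.3, TMM, filterByExpr minimum count 10, robust quasi-likelihood fit to all 9 libraries, 6 residual degrees of freedom). The SE beside an edgeR value is the absolute log2 fold change divided by the square root of the quasi-likelihood F statistic. FPKM was tested with limma 3.58.1 (trend, robust) on log2(FPKM + 0.1) for 18904 genes with a mean of at least 0.1, a scale that understates changes of low genes. Of the 39 genes, 38 passed that filter (not Krt8). Benjamini-Hochberg adjustment covered every gene tested (threshold 0.05). DESeq2 1.42.0, other scalings, filters, pseudocounts, the replicate block and fits without 1 library were alternatives.

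The genes and lists were chosen with earlier results of these data known. Named in full are the 3 genes of highest mean FPKM in each role (all where there are 3 or 4), and the 2 highest of each of 14 further lists. Same-numbered libraries were checked for pairing, with mixed correlations that cannot show or exclude it, and the tests treat the libraries as unpaired. No 2 libraries of a group were duplicates, with equal counts for at most 0.466% of genes. Annotated spans of 15 of the 39 genes overlap another gene, at a mean of 1 FPKM or more for 5 (Col5a1, Col4a1, Col4a2, Igfbp7 and Tagln). How reads in such overlaps were counted was not checked.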

Additional observations from a re-analysis of the deposited data

How the results depend on the processing

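Calls of the 28 genes in the count table stayed at 0 in each direction in SCG2 knockout against LILRB4 and against WT under every alternative run. In LILRB4 against WT, the number called higher was 1 with DESeq2 (beside 6.2% of all genes) and 2 of 37 with recovered counts without LILRB4 replicate 2 (beside 3.05%), and 0 to 2 over the fits that left out 1 library each (beside 0.0% to 5.48%). The number called lower was 1 with total count scaling (beside 3.25%) and 4 with DESeq2 (beside 3.16%). The cause was not tested. On FPKM, the Igfbp7 log2 fold change in LILRB4 against WT was 0.25 with all libraries, and over the fits without 1 LILRB4 library it ran from -0.13 (without replicate 1), through -0.04 (without replicate 3), to 0.93 (without replicate 2).

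Correlations of same-numbered deviations from the group means were 0.64, 0.51 and -0.467 for LILRB4 and WT. They were -0.555, -0.306 and -0.195 for SCG2 knockout and LILRB4, and -0.287, -0.113 and 0.421 for SCG2 knockout and WT. With 3 libraries a group, these mixed values cannot show or exclude pairing by replicate number. Fits with the replicate number as a block called 0 of these genes in each direction and comparison, and in LILRB4 against WT 1 gene higher and 0 lower over all genes, against 171 and 51 without it.

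Summed levels (log2 ratio of group means) moved as follows. With CPM, LILRB4 against WT stood at -0.41 for basement membrane and microfibril collagens (-0.23 in FPKM) and -0.65 for matrix proteoglycans and glycoproteins (-0.47). Without the gene of highest mean, LILRB4 against WT stood at -0.28 for collagen processing (-0.55 with it), -0.28 for surface proteins (-0.51) and 1.07 for contractile proteins (0.04). SCG2 knockout against WT then stood at -0.10 for collagen processing (-0.37), 1.0 for contractile proteins (-0.11), 0.22 for endothelial genes (0.58) and 0.68 for epithelial genes (0.07), so that 1 gene carries much of each sum.

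With 3 libraries a group, edgeR and DESeq2 disagreed on genes whose groups did not overlap. Levels under 1 FPKM rest on few reads, and the strand setting of the counting is not given in these sources.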

Other observations

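Keratin 14 was high in these libraries while its usual partner was not. Krt14, a keratin of basal epidermis, stood at 142, 106 and 133 FPKM in SCG2 knockout, 64.3, 90.1 and 100.1 in LILRB4, and 135, 154 and 145 in WT replicates 1 to 3. All LILRB4 values lay below all SCG2 knockout and all WT values, at an edgeR adjusted p of 0.0518 in LILRB4 against WT. Krt5, which encodes the keratin that pairs with it, was at 0 to 0.222 FPKM over the 9 libraries, and Krt10, the next of the keratinocyte list, at 0.662 to 1.65 FPKM.

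Cd34, a sialomucin of blood progenitors and vessels, led the further endothelial genes at 44.9, 50.9 and 54.6 FPKM in SCG2 knockout, 37.1, 41.4 and 43.7 in LILRB4, and 55.7, 70.7 and 63.9 in WT libraries, so the 3 groups did not overlap. Ecscr, an endothelial surface protein, followed at 5.76 to 7.22 FPKM in SCG2 knockout, 5.14 to 7.15 in LILRB4 and 7.30 to 11.4 in WT. Of the lists of other blood cells, Retnlg, a resistin-like gene of neutrophils, passed in LILRB4 against WT (log2 fold change 1.97, SE 0.40, edgeR adjusted p = 0.0406), as did Xcr1, the chemokine receptor of cross-presenting dendritic cells (1.69, SE 0.32, edgeR adjusted p = 0.0323). Without LILRB4 replicate 2, Retnlg stood at 1.42 (edgeR adjusted p = 0.0299) and Xcr1 at 1.74 (edgeR adjusted p = 0.0267). The Retnlg call ended without any other 1 of the 9 libraries, at edgeR adjusted p-values of 0.0591 to 0.15, and the Xcr1 call ended without SCG2 knockout replicate 2, LILRB4 replicate 1 or 3, or any 1 WT library, at 0.0568 to 0.136. No other gene of these lists passed by edgeR in any comparison with all 9 libraries. Retnlg stood at 18.3 to 26.2 FPKM in SCG2 knockout, 55.3 to 154 in LILRB4 and 15.2 to 34.1 in WT, and Xcr1 at 1.18 to 1.49 FPKM in SCG2 knockout, 1.63 to 2.75 in LILRB4 and 0.426 to 0.896 in WT. Of the T and NK cell list, Gzmb stood at 61.0 to 119 FPKM in SCG2 knockout, 18.1 to 79.7 in LILRB4 and 22.3 to 76.7 in WT, and Trac at 48.0 to 87.9 FPKM in SCG2 knockout, 12.2 to 120.2 in LILRB4 and 15.9 to 47.0 in WT. Of the monocyte and macrophage list, Cd14 stood at 756 to 1443 FPKM in SCG2 knockout, 1900 to 2688 in LILRB4 and 886 to 2528 in WT, and Apoe at 94.4 to 249 FPKM in SCG2 knockout, 206 to 349.6 in LILRB4 and 209 to 319 in WT. Over the 9 libraries, the most abundant genes of the remaining lists were Ccr7 (25.4 to 140.05 FPKM) and Cd209a (1.76 to 6.43) for dendritic cells, S100a9 after Retnlg for neutrophils (0.466 to 17.2), Pf4 (11.7 to 80.2) and Ppbp (0.113 to 4.01) for platelets, Hbb-bs (4.30 to 81.8) and Hba-a1 (5.15 to 74.5) for erythroid cells, and Cd79b (0.475 to 2.59) and Cd79a (0.113 to 3.27) for B cells. Skeletal muscle and adipocyte genes were low, led by Mylpf (0.555 to 1.99 FPKM) and Tnnt3 (0.308 to 1.09), and by Retn (0 to 0.453) and Cfd (0 to 0.158).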
